A study of Caenorhabditis elegans with 6 samples.

Results

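Aminoacyl-tRNA synthetases, the enzymes that join each amino acid to its transfer RNA, were followed as RNAs in whole Caenorhabditis elegans. Every gene of the deposited table whose name has the form of a synthetase gene (a letter for the amino acid, then ars, a hyphen and a digit) was taken. This gave 32 genes of the 16262 listed. Of these, 16 encode cytosolic enzymes, 11 mitochondrial enzymes and 4 enzymes that serve both compartments, by textbook knowledge of the family. The gene vars-1 was put in no compartment, because the sources used here do not state it and the valyl enzyme glp-4 lies outside the naming rule. All 32 passed the filter on low values.

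The animals were young adults, and each of the 6 libraries came from whole worms harvested from 150 plates. In 3 libraries the RNA-binding La-related protein LARP-1 carried GFP at its own locus (allele yq636), and in 3 it carried the peroxidase APEX2 (allele yq637). Both groups were cultured at 20 °C. They were given biotin-aniline at 3.3 mM for 2 h at 25 °C and then 11 µl of 100 mM H2O2 for 2 min, so the tag was the labelled difference. Separate cultures for the replicates are not named in the labels, nor is the age of the young adults in hours. The titles name an immunoprecipitation, while the labels' protocols give total RNA depleted of ribosomal RNA and no pull-down. A difference between groups can therefore be recovery near the tagged protein or RNA level in the worms, which cannot be told apart.

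Synthetases charge transfer RNAs for both protein-making systems of the cell. Animals use separate nuclear genes for most cytosolic and mitochondrial enzymes, and a few genes make both forms by alternative starts or exons. The enzymes fall into class I and class II, which have unrelated catalytic folds. In mammals, several cytosolic members gather in a multi-synthetase complex. Loss of charging raises uncharged transfer RNA, which the kinase GCN2 senses.

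The libraries held 3824041 to 6414569 reads on the listed genes. Values are the authors' normalized counts, that is, gene reads divided by a size factor per library. A log2 difference is the APEX2 mean less the GFP mean of log2(value + 1), given with its standard error. They were tested with limma across 10534 genes, and a gene is said to rise or fall where its Benjamini-Hochberg adjusted p is under 0.05. The tagged gene, larp-1, had normalized counts of 2599.9, 2607 and 2557 with GFP and 2826, 3022 and 2734 with APEX2. The groups did not overlap, but the log2 difference of 0.14 ± 0.09 did not pass (limma adjusted p = 0.30). Markers of oocytes, germline, intestine, body wall muscle and nerve cells were all detected, as whole animals should show. The sperm markers spe-9, spe-11 and spe-38 and the hypodermal rol-6 lay under the filter.

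The synthetase RNAs differed in level far more among themselves than between the groups. Levels between genes are given as normalized counts per kb of exon, averaged over the 6 libraries. The lysyl enzyme gene kars-1, which serves both compartments, was highest at 1601 and ranged from 1401 to 1853 over the libraries. The cytosolic aspartyl gene dars-1 followed at 1076, with a range of 949 to 1350, so its libraries lay below those of kars-1. The asparaginyl gene nars-1 at 544 and the arginyl gene rars-1 at 474 came next, and their ranges overlapped. These were followed by 7 genes that had ranges that all overlapped, tars-1, sars-1, gars-1, pars-1, wars-1, fars-3 and fars-1, from 371 down to 287. The range of fars-1 (253 to 341) also overlapped that of the next gene, mars-1 (184 to 257). From mars-1 at 220 to yars-1 at 58.9 each range overlapped that of the next gene, with cars-1 at 191, iars-1 at 167 and fars-2 at 79.1 among them. Below these in mean level, iars-2 at 39.3 did not reach yars-1, and yars-2 at 33.6 and ears-1 at 32.3 overlapped iars-2. The range of yars-2, up to 51.9, also reached that of yars-1, which began at 50.7. At the low end lay the mitochondrial genes dars-2 (14.2), lars-2 (6.94) and aars-1 (3.49), and the ranges of the last pair overlapped.

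**Figure D1:**
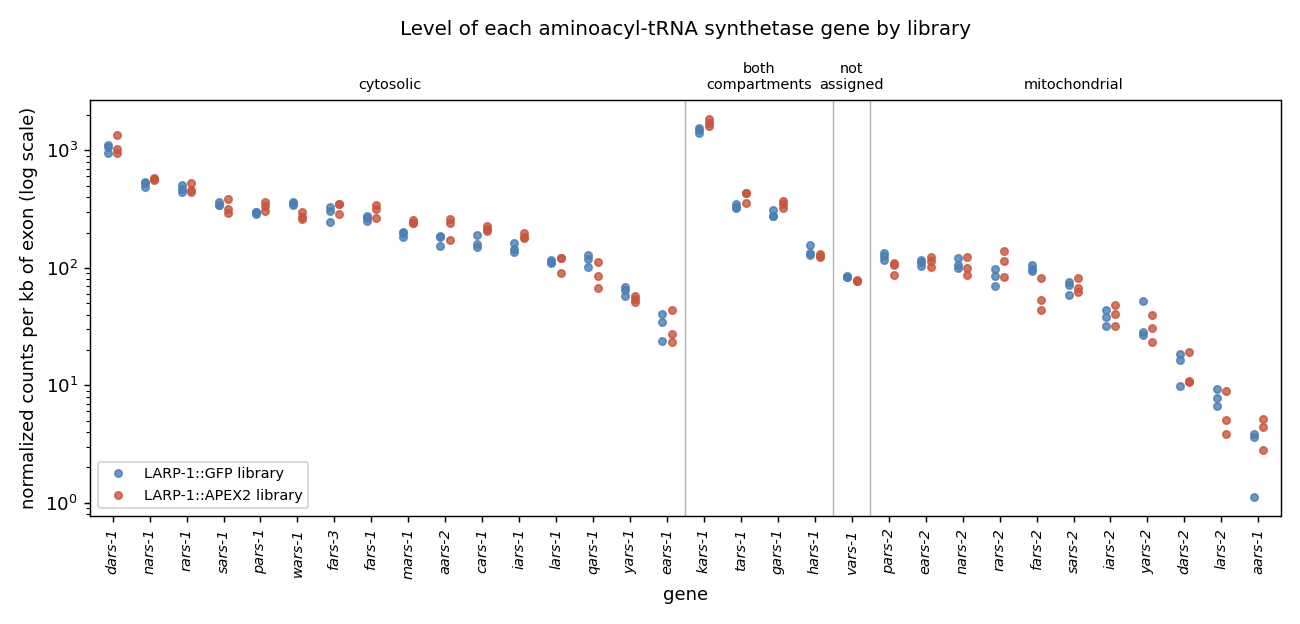
Level of each of the 32 synthetase genes, in normalized counts per kb of exon on a log axis, with a point for each of the 6 libraries, ordered within compartments by mean level. The cytosolic genes run from dars-1 at 1076 to ears-1 at 32.3 and the mitochondrial genes from pars-2 at 113 to aars-1 at 3.49.

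Cytosolic genes had a median level of 254 per kb (16 genes, 32.3 to 1076), and mitochondrial genes of 69.8 per kb (11 genes, 3.49 to 113). The 4 genes of both compartments had a median of 344 per kb. For 11 amino acids the table held both a cytosolic and a mitochondrial gene, and phenylalanine has a pair of cytosolic subunit genes, which made 12 ratios. In 11 of these the cytosolic gene was the higher in all 6 libraries, from 1.75-fold for tyrosine to 75.7-fold for aspartate. The compartments of yars-1 and yars-2 are the least sure of these assignments, and a swap would turn the tyrosine ratio. Next above it was proline at 2.79-fold. Glutamate went the other way. The cytosolic ears-1 stood at 32.3 per kb and the mitochondrial ears-2 at 113, a ratio of 0.287, and the log2 ratio lay between -2.24 and -1.38 over the libraries. Per gene, ears-1 had normalized counts of 124, 85.1 and 143 with GFP and 83.7, 98.0 and 155 with APEX2, and ears-2 had 185, 178 and 164 against 159, 195 and 181. The GFP and APEX2 groups overlapped for each gene. These levels use the union of annotated exons as the length, so a gene with a long but little used exon is set too low.

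**Figure D2:**
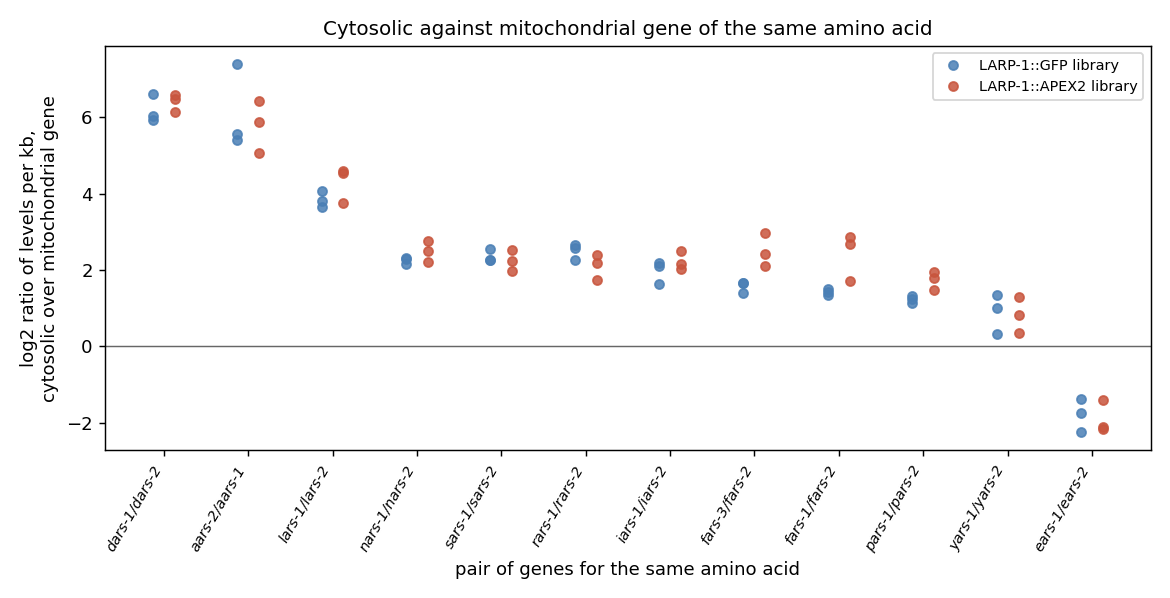
Ratio of the cytosolic to the mitochondrial gene of the same amino acid, as log2 of levels per kb, with a point for each library. Points above 0 mean more RNA of the cytosolic gene, and ears-1/ears-2 alone lies below 0, between -2.24 and -1.38.

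Between the groups, 3 of the 32 genes rose with APEX2, 2 fell and 27 did not pass. Of all tested genes, 11.6% rose and 10.1% fell (21.7% in either direction), so neither count stood above the background. The family's median log2 difference was 0.03, beside 0.02 for all tested genes, and single values ran from -0.77 to 0.59. The top value is that of aars-1, which passed the filter only through its APEX2 libraries (mean 12.3, against 8.53 with GFP). The next highest was 0.40, for rars-2. The groups did not overlap for 13 members, 8 of them higher with APEX2 and 5 lower, beside 19.9% and 17.5% of all tested genes (37.4% in either direction). The count of rising genes depended on the scaling, while 2 genes fell under each scaling. With libraries scaled to the same total 1 rose and 2 fell, with TMM scaling 2 rose and 2 fell, and with quantile normalization 0 rose and 2 fell (limma, with 4 higher and 4 lower at an unadjusted p under 0.05). Length correction also gave 0 and 2 (limma, with 5 higher and 4 lower at an unadjusted p under 0.05).

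**Figure D3:**
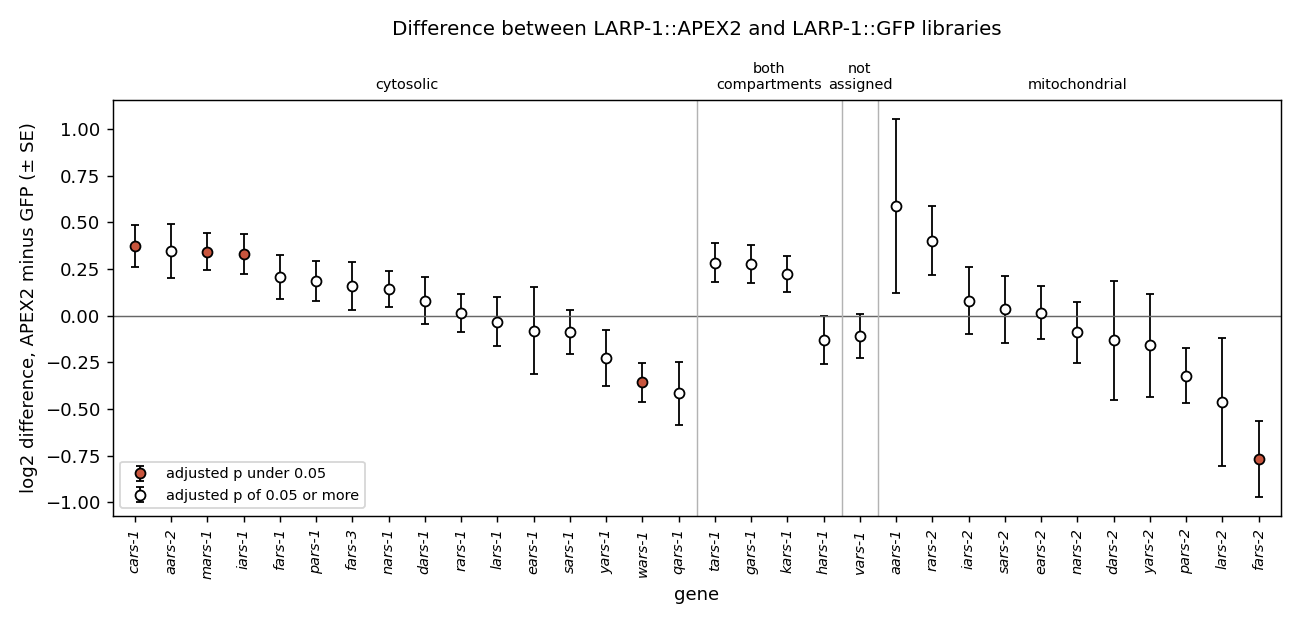
Log2 difference of each synthetase gene between LARP-1::APEX2 and LARP-1::GFP libraries (3 each), with standard errors. Filled points passed an adjusted p of 0.05, namely cars-1, mars-1 and iars-1 above 0 and wars-1 and fars-2 below it.

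All of the rising genes encode cytosolic class I enzymes. The cysteinyl enzyme gene cars-1 (WBGene00000800) lies on the minus strand of chromosome I at 2623099 to 2628577 in WBcel235. With GFP it had 451, 566 and 479 normalized counts, against 674, 635 and 621 with APEX2. Every APEX2 library lay above every GFP library. Its log2 difference was 0.37 ± 0.11 (limma adjusted p = 0.029). The methionyl enzyme gene mars-1 (WBGene00003415, chromosome IV, 11631941 to 11635487, minus strand) charges both initiator and elongator methionine transfer RNAs. It had normalized counts of 552, 600.4 and 594 with GFP and 724, 769 and 724 with APEX2. The groups stood apart, at a difference of 0.34 ± 0.10 on the log2 scale (limma adjusted p = 0.024). The isoleucyl enzyme gene iars-1 (WBGene00002152, chromosome IV, 10368601 to 10373136, plus strand) had 491, 523 and 590.5 normalized counts with GFP and 648, 709 and 659 with APEX2. Here too the groups did not overlap, and the log2 difference was 0.33 ± 0.11 (limma adjusted p = 0.040).

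The calls of these genes were close to the threshold. That of iars-1 ended with edgeR (adjusted p = 0.054) and DESeq2 (0.067) on recovered reads, with TMM scaling (0.054) and with no filter on low values (0.057). With libraries scaled to the same total mars-1 (0.057) and iars-1 (0.094) were not called, and all 3 ended with quantile normalization or with correction for transcript length (limma adjusted p of 0.066 to 0.13). Without GFP replicate 1, GFP replicate 3 or APEX2 replicate 2 none of the 3 was called (limma adjusted p of 0.055 to 0.17), with log2 differences of 0.27 and more under every left-out library. Without GFP replicate 2 mars-1 (0.062) and iars-1 (0.13) were not called, and without APEX2 replicate 3 iars-1 (0.052) was not.

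The falling cytosolic gene was wars-1, which encodes the tryptophanyl enzyme, also of class I (WBGene00006945, chromosome V, 18852704 to 18859221, minus strand). Its normalized counts were 735, 690.0 and 717 with GFP and 524, 600.0 and 549 with APEX2, so all APEX2 libraries were the lower. The log2 difference was -0.36 ± 0.10 (limma adjusted p = 0.022). It stayed between -0.41 and -0.31 when libraries were left out in turn. The call ended without any 1 of GFP replicates 1, 2 and 3 (limma adjusted p = 0.089, 0.059 and 0.093). Correction for length did not end it, at -0.41 (limma adjusted p = 0.010).

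The gene with the lowest difference of the family was fars-2, which encodes the mitochondrial phenylalanyl enzyme, of class II (WBGene00013361, chromosome V, 19897977 to 19907434, minus strand). It had normalized counts of 146, 165 and 152 with GFP and 127, 69.1 and 83.0 with APEX2. No APEX2 library reached a GFP library, and APEX2 replicate 1 lay nearest to them. The log2 difference was -0.77 ± 0.20 (limma adjusted p = 0.015). Without APEX2 replicate 1 it was -1.02, and without APEX2 replicate 2, the lowest library, it was -0.58 and no longer passed (limma adjusted p = 0.068). The call also ended without GFP replicate 2 (0.071) or 3 (0.063), while edgeR and DESeq2 kept it (adjusted p = 0.013 and 0.0060).

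**Figure D4:**
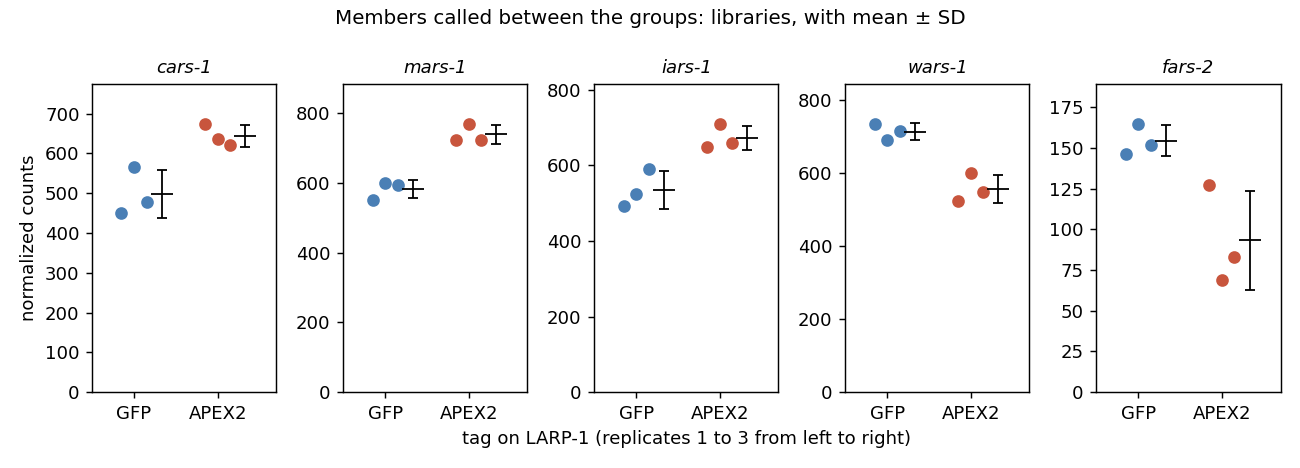
Normalized counts of the 5 synthetase genes that passed, by library, with axes from 0 and bars for the mean ± SD of 3 libraries. In each panel the GFP and APEX2 points do not overlap, and fars-2 falls from a mean of 154 to 93.1.

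The cytosolic phenylalanyl enzyme is built from alpha and beta subunits, encoded by fars-1 and fars-3, and neither of these genes passed. The normalized counts of fars-1 were 511, 539 and 559.7 with GFP and 535, 644 and 688 with APEX2, and those of fars-3 were 466, 633 and 581 against 663, 663 and 544. The groups overlapped for both, with log2 differences of 0.21 ± 0.12 and 0.16 ± 0.13 (limma adjusted p = 0.23 and 0.43). The log2 ratio of fars-1 to fars-2 was 1.43 ± 0.09 with GFP and 2.41 ± 0.62 with APEX2, and that of fars-3 to fars-2 was 1.57 ± 0.15 and 2.50 ± 0.44 (SD, n = 3). The groups did not overlap in either ratio, and both ratios share fars-2. The same held for pars-1 to pars-2 at 1.23 ± 0.08 and 1.74 ± 0.25 (SD, n = 3). In the other 9 ratios of a cytosolic to a mitochondrial gene the groups overlapped, and none of these changes in ratio was tested.

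Among the other cytosolic class I genes, the glutaminyl qars-1 had the lowest difference at -0.42 ± 0.17, with normalized counts of 320.1, 252 and 297 against 169, 215 and 278, and did not pass (limma adjusted p = 0.097). It was called lower without APEX2 replicate 3. Animal mitochondria obtain glutaminyl transfer RNA through a glutamyl intermediate and an amidotransferase, so this gene has no mitochondrial partner here. The tyrosyl yars-1 had a log2 difference of -0.23 ± 0.15, ears-1 of -0.08 ± 0.24, the leucyl lars-1 of -0.03 ± 0.13 and the arginyl rars-1 of 0.01 ± 0.10, none of which passed. Of the 9 cytosolic class I genes, 3 rose and 1 fell, where 11.6% and 10.1% of all tested genes did. Of the 7 cytosolic class II genes 0 rose and 0 fell (limma, with 1 higher and 0 lower at an unadjusted p under 0.05, and 0 of each with edgeR and with DESeq2). The alanyl aars-2, with 477, 588 and 568 against 537, 750.2 and 814 normalized counts, had the largest difference of that class, 0.35 ± 0.15, and the groups overlapped. The others were pars-1 (0.19), nars-1 (0.14), dars-1 (0.08) and the seryl sars-1 (-0.09), beside fars-1 and fars-3. Whether the classes differ was not tested.

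The counterparts of the mammalian multi-synthetase complex were also counted as a list. These are the genes for the enzymes of arginine, aspartate, glutamate, glutamine, isoleucine, leucine, lysine, methionine and proline. Of the 9, 2 rose (iars-1 and mars-1), 0 fell and 7 did not pass (limma, with 1 lower at an unadjusted p under 0.05, and 0 lower with edgeR and with DESeq2), and the median was 0.08. The other 11 genes of the cytosol or of both compartments had 1 rise, 1 fall and a median of 0.16. Among all tested genes 11.6% rose and 10.1% fell, so these counts do not set the complex apart. Whether its genes moved together was not tested.

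Of the 4 genes that serve both compartments, 0 rose and 0 fell (limma, with 3 higher and 0 lower at an unadjusted p under 0.05, and 0 of each with edgeR and with DESeq2), around a median of 0.25. The glycyl gars-1 had normalized counts of 656, 659.8 and 734 with GFP and 774, 877 and 832 with APEX2. Its groups did not overlap, and its log2 difference was 0.28 ± 0.10 (limma adjusted p = 0.069). The threonyl tars-1 had 879, 822 and 833 against 900.3, 1097 and 1102, with 0.29 ± 0.11 (limma adjusted p = 0.072). The lysyl kars-1 had 2905, 3205 and 3069 against 3840.4, 3521 and 3371, with 0.22 ± 0.10 (limma adjusted p = 0.11). In all of these genes the APEX2 libraries were the higher without passing, and only in the histidyl hars-1 (-0.13 ± 0.13) did the groups overlap. Of all tested genes, 11.6% rose, 10.1% fell and 19.9% had every APEX2 library above every GFP library, around a median of 0.02. Whether these 4 genes differ from all tested genes was not tested. These 4 genes took 0.110% ± 0.00262 of the reads with GFP and 0.124% ± 0.00336 with APEX2 (SD, n = 3).

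Of the 11 mitochondrial genes 0 rose, 1 fell and 10 did not pass (limma, with 1 higher and 2 lower at an unadjusted p under 0.05, and 0 higher with edgeR and with DESeq2). The share that fell, 9.1%, lies near the 10.1% of all tested genes, of which 11.6% rose, so these counts do not set the mitochondrial genes apart. The prolyl pars-2 had the next lowest p, with normalized counts of 182, 209 and 198 with GFP and 136, 173 and 164 with APEX2. The groups did not overlap, and the log2 difference of -0.32 ± 0.15 did not pass (limma adjusted p = 0.13). The arginyl rars-2 had 149, 124 and 171 against 148, 244 and 203, with 0.40 ± 0.19 (limma adjusted p = 0.14), and its APEX2 replicate 1 lay among the GFP libraries. The other genes of well over 10 normalized counts had log2 differences smaller than their standard errors, so no direction was resolved. These were the isoleucyl iars-2 at 0.08 ± 0.18, the seryl sars-2 at 0.03 ± 0.18 and ears-2 at 0.02 ± 0.14. The asparaginyl nars-2 stood at -0.09 ± 0.16 and the tyrosyl yars-2 at -0.16 ± 0.28.

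The 3 mitochondrial genes of fewest reads gave wide errors. The alanyl aars-1 had normalized counts of 10.8, 3.36 and 11.4 with GFP and 15.3, 8.40 and 13.1 with APEX2, and at least 3 reads in each library. The leucyl lars-2 had 25.5, 21.3 and 18.3 against 10.6, 24.3 and 13.8, and the aspartyl dars-2 had 18.7, 34.7 and 30.8 against 36.5, 20.5 and 20.1. The groups overlapped in each, and log2 differences of 0.59 ± 0.47, -0.46 ± 0.34 and -0.13 ± 0.32 were not resolved at this depth.

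Set side by side, the cytosolic genes had a median log2 difference of 0.11, with 10 of 16 positive, and the mitochondrial genes of -0.09, with 5 of 11 positive. All tested genes had a median of 0.02, with 5496 of 10534 positive, and against the GFP mean their median was 0.03 in each APEX2 library. The positive mitochondrial genes include aars-1, which passed the filter only through its APEX2 libraries. Both compartment medians were unstable. That of the cytosolic genes was -0.014 with quantile normalization. That of the mitochondrial genes turned to 0.05 without GFP replicate 1, to 0.03 without APEX2 replicate 1 and to 0.01 without APEX2 replicate 3. Against the GFP mean, the cytosolic median lay at 0.07, 0.08 and 0.17 in APEX2 replicates 1, 2 and 3, and the mitochondrial median at -0.14, 0.13 and -0.14. Medians of the GFP libraries themselves ran from -0.05 to 0.05 and from -0.03 to 0.07. The cytosolic genes took 0.228% ± 0.00723 of the reads with GFP and 0.236% ± 0.00928 with APEX2, and the mitochondrial genes 0.0266% ± 0.00156 and 0.0244% ± 0.00236 (SD, n = 3), with overlapping groups in both. No direction for either compartment follows from these values.

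For valine, the table also held glp-4, which encodes a valyl enzyme and was outside the naming rule. It was chosen after its values were seen. It had normalized counts of 444, 393 and 435 with GFP and 599, 671 and 582 with APEX2, and rose by 0.54 ± 0.11 (limma adjusted p = 0.0032). That call held under every alternative run. The gene vars-1 had 258, 265 and 260.4 normalized counts against 242, 242 and 244, without overlap, and its log2 difference of -0.11 ± 0.12 did not pass (limma adjusted p = 0.56).

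Exon lengths of the members ran from 1376 to 3741 nucleotides. All of the rising genes were among the 9 members of 2900 nucleotides and more, where 3 rose, 0 fell and the median was 0.33, while of the 23 shorter members 0 rose and 2 fell (limma). Among all 700 tested genes of 2900 to 3800 nucleotides the median was 0.10, 14.6% rose and 66 genes fell. Of all tested genes of 1300 to 2000 and of 2000 to 2900 nucleotides, 12.1% and 13.3% rose. These length classes were chosen after the values were seen. With differences corrected for length, cars-1, mars-1 and iars-1 stood at 0.30, 0.27 and 0.26. The sharing of reads with other genes is a further limit, since a strand setting is not given in the sources used here. Exonic bases of 13 members overlap another protein-coding gene, 153 bases at most, and 12 of these members have such a partner on the opposite strand. For cars-1 the partner Y23H5A.2 (88 bases) had means of 88.9 and 68.9 normalized counts, and for wars-1 the partner nhr-230 (26 bases) of 4.34 and 1.40, both well under the synthetase gene. For yars-1 the partner ekl-4 (136 bases) rose by 0.64, and for dars-1 the partner nlp-36 (11 bases) rose by 0.43. The mitochondrial iars-2, at means of 137 and 146 normalized counts, shares 138 bases with the opposite-strand clec-87, at 5422 and 4758, and 71 bases with C25A1.20 on its own strand, which fell (-0.69, limma adjusted p = 0.033). Their part in the values was not tested.

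Genes around the synthetases were followed in lists for transfer RNA maturation, translation elongation and the response to uncharged transfer RNA. Of 19 genes of transfer RNA maturation and modification, 2 rose, 2 fell and 15 did not pass, and the median was -0.09. The called shares of 10.5% in each direction lie near those of all tested genes (11.6% and 10.1%), so the counts do not set the list apart. The gene elpc-1, of the Elongator complex that modifies wobble uridines, rose by 0.69 ± 0.17 (limma adjusted p = 0.011). Its normalized counts were 189, 202 and 217 with GFP and 454, 266 and 291 with APEX2, the highest in APEX2 replicate 1, and without that library the difference was 0.46. The gene hoe-1, of the endonuclease that trims the 3' end of transfer RNA precursors, rose by 0.41 ± 0.12 (limma adjusted p = 0.031). The pseudouridine synthase gene pus-1 fell, with a log2 difference of -0.71 ± 0.13 (limma adjusted p = 0.0018), from 270.0, 295 and 274 to 158, 168 and 188 normalized counts. The gene tut-1, whose product thiolates wobble uridines of cytosolic transfer RNAs, fell as well, with -0.86 ± 0.20 (limma adjusted p = 0.0077). The groups of all these genes stood apart. Without GFP replicate 1 the calls of elpc-1 (limma adjusted p = 0.054), tut-1 (0.055) and hoe-1 (0.069) ended, and that of hoe-1 also without GFP replicate 2 or 3 or APEX2 replicate 2 (0.10 to 0.12). The call of hoe-1 also ended with DESeq2 (adjusted p = 0.0505), and with limma under length correction (0.066) and the same total per library (0.076).

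Of the 6 cytosolic elongation factor genes 1 rose and 0 fell (limma, with 0 lower at an unadjusted p under 0.05 and with edgeR and DESeq2). This was eef-1A.2, of the factor that brings charged transfer RNA to the ribosome, at 0.54 ± 0.10 (limma adjusted p = 0.0017), while eef-1A.1 had a difference of 0.00 ± 0.09. Of 5 mitochondrial translation factor genes 1 fell and 0 rose (limma, with 2 lower and 0 higher at an unadjusted p under 0.05). With edgeR 2 were lower and with DESeq2 1, and 0 were higher with either tool. The gene that fell with limma was the ribosome recycling factor gene mrrf-1, at -1.11 ± 0.26 on the log2 scale (limma adjusted p = 0.0085). Its normalized counts were 56.0, 39.2 and 65.1 with GFP and 20.0, 29.9 and 22.1 with APEX2. Without GFP replicate 3 that call ended (0.069). The gene tufm-2 of the same list had a log2 difference of -0.42 ± 0.14 that did not pass (limma adjusted p = 0.051), though its groups stood apart. It passed with length correction (limma adjusted p = 0.031). With 11.6% of all tested genes rising and 10.1% falling, 1 limma call does not set either list apart. Whether the mitochondrial list moved together was not tested.

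In the starvation response, atf-4, the transcription factor that in mammals switches on many synthetase genes, rose by 0.54 ± 0.15 (limma adjusted p = 0.021). Its normalized counts were 116, 133 and 105 with GFP and 186, 159.6 and 169.5 with APEX2, and the groups did not overlap. The gene gcn-1, whose product helps GCN2 sense uncharged transfer RNA, fell with -0.38 ± 0.12 (limma adjusted p = 0.039), and gcn-2 itself had a difference of -0.34 ± 0.18 that did not pass (limma adjusted p = 0.21). Of the 7 genes, 1 rose, 1 fell and 5 did not pass. The called shares of 14.3% in each direction lie near those of all tested genes (11.6% and 10.1%), so the counts do not set the list apart. Without GFP replicate 1 or 3 the calls of atf-4 (0.073 and 0.11) and gcn-1 (0.081 and 0.099) ended, as did that of gcn-1 without GFP replicate 2 (0.17) or APEX2 replicate 2 (0.096). With no filter on low values gcn-1 was not called either (0.060).

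Some tissue markers were called between the groups, where 11.6% of all tested genes rose and 10.1% fell. Of 7 oocyte markers 5 rose and 1 fell, and their summed normalized counts were 21993 to 22335 with GFP and 27421 to 28278 with APEX2. Of 6 intestine markers 1 rose and 2 fell, with sums of 84188 to 96023 and 63961 to 85629, which overlapped. The 5 germline markers had 1 rise and 1 fall, with sums of 13581 to 14492 and 14214 to 15687, which also overlapped. Body wall muscle had 1 rise and 1 fall among 5 markers, and hypodermis 1 rise and 0 falls among 3. The rise in body wall muscle was called by limma alone, with 0 higher under edgeR and under DESeq2. Single calls in lists this short do not set them apart from all tested genes. The neuron and sperm lists had 5 tested markers each. Both had 0 rises and 0 falls (limma, with 1 and 2 lower at an unadjusted p under 0.05, and 0 with edgeR and DESeq2). No listed marker was at 0 in every library. In whole animals fewer cells of a type and less RNA per cell cannot be told apart, and the part of tissue make-up in the synthetase values was not tested.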

How the data were processed

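The 6 libraries (3 LARP-1::GFP, 3 LARP-1::APEX2) came with a signal per gene that the authors deposited as normalized counts, that is, reads over a size factor of each library. In the values, 100% were whole numbers of reads, within 0.001 of a read, once divided by the smallest value above 0 of their library. The submitters' processing notes name the tools Trim Galore, Bowtie, STAR, featureCounts and DESeq2, without versions, settings or strand, and the genome build as ce11. Of 16262 gene names 16178 were found in Ensembl's WBcel235 annotation (ce11 coordinates), the source of exon lengths. No sequences were used here.

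Genes with a mean of at least 10 were tested on log2(value + 1) with limma 3.58.1 in R 4.3.3 (trended, robust prior, no covariate), two-sided, with Benjamini-Hochberg adjustment over all 10534 genes. Alternatives were edgeR 4.0.16 (quasi-likelihood) and DESeq2 1.42.0 on recovered reads, other pseudocounts, filters and scalings, a length correction, a replicate block and each library left out. limma, edgeR and DESeq2 were tested on simulated counts. Replicates of a group differed beyond sampling noise, with a chi-square over its degrees of freedom between 2.87 and 12.0. If replicates were not separate cultures, the p-values cover technical spread alone. Duplicate PCR reads may be among the counts. Members, compartments and lists were chosen with earlier results of these data known. Values per library follow a rule for genes that passed, for the 2 lowest p of a compartment in which fewer than 2 passed, and for larp-1. Of each neighbouring list up to 4 genes that passed are named. Other members with such values were picked after their values were seen.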

Additional observations from a re-analysis of the deposited data

How the results depend on the processing

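The count of synthetase genes higher with APEX2, 3, was 1 with libraries scaled to the same total, and 0 with quantile normalization, length correction and the replicate block (limma, with 4, 5 and 6 at an unadjusted p under 0.05). It ranged from 0 to 8 over the left-out libraries. The count lower, 2, was 1 with the replicate block and 0 to 3 over the left-out libraries. edgeR and DESeq2 gave 2 and 2. Over the left-out libraries the neighbouring lists together had 1 to 5 genes higher and 2 to 5 lower, against 4 and 4. The cytosolic median of 0.11 was 0.055 with the same total, 0.0545 with length correction and -0.014 with quantile normalization, and 0.047 to 0.139 over the left-out libraries. The cause was not tested. With the other pseudocounts and filters these counts stayed within 1.5 times and these medians within the spread between libraries. Genes near 10 normalized counts rest on few reads, which limits aars-1, lars-2 and dars-2.

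No pairing by replicate number was seen: deviations from the group means correlated at -0.16, -0.08 and 0.02 for the numbers 1, 2 and 3. With values centred within groups of 3, this check cannot exclude that samples of the same number were prepared together. With the number as a block 984 genes of all tested were higher and 883 lower, against 1219 and 1069. The block ended the calls of cars-1, mars-1, iars-1, wars-1, hoe-1 and gcn-1.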

Other observations

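APEX2 replicate 1 differed from APEX2 replicates 2 and 3 in a number of synthetase genes. Against the mean log2 value of the other APEX2 libraries, it was lower by more than 0.4 in 8 genes, at -0.74 for lars-2, -0.58 for rars-2, -0.58 for yars-2, -0.55 for ears-1, -0.54 for aars-2, -0.53 for qars-1, -0.47 for iars-2 and -0.43 for lars-1. It was higher at 0.82 for dars-2, 0.74 for fars-2, 0.50 for aars-1, 0.45 for dars-1 and 0.41 for nars-2. Of these genes lars-2, dars-2 and aars-1 had as few as 9, 19 and 3 reads in a library. The share of all tested genes beyond 0.4 was not counted, nor was the same count made for APEX2 replicates 2 and 3. Over all genes the chi-square per degree of freedom of APEX2 replicate 1 was 7.84 against APEX2 replicate 2 and 12.02 against APEX2 replicate 3, beside 5.24 between those.

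Without that library 8 of the 32 genes were called higher and 2 lower (limma, adjusted over all tested genes), where 12.4% and 11.3% of all tested genes were called. The 5 added to cars-1, iars-1 and mars-1 were aars-2 at 0.53 ± 0.11, fars-1 at 0.31 ± 0.10, gars-1 at 0.32 ± 0.10, tars-1 at 0.38 ± 0.09 and the mitochondrial rars-2 at 0.60 ± 0.16. These values rest on 2 APEX2 libraries, no label sets the left-out library apart, and leaving out other libraries gave 0 to 2 genes higher.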
